A study of Mus musculus with 8 samples.

Results

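The hedgehog pathway was followed through the chromatin of 9 mouse genes: the ligand gene Shh, the receptor and co-receptor genes Ptch1, Hhip and Gas1, the signal transducer Smo, the inhibitor Sufu, and the transcription factor genes Gli1, Gli2 and Gli3. Each locus was the gene's span on GRCm38 plus 10 kb on either side, and the data were the peaks of histone H3 lysine 4 methylation (H3K4me) that overlapped it. The genes are 9 of 21631 protein-coding loci on chromosomes 1 to 19 and X, listed by name. All 9 held peaks in every library, as did 70.3% of the 21631 loci.

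H3K4me was mapped by ChIP-seq in mouse embryos at E15.5 (days of embryonic development), from lysates of the whole cortex. The chromatin was native, cut with micrococcal nuclease, and precipitated with an abcam antibody sold against the monomethylated form of the residue. The controls, labelled WT, carried Prdm16 flox/flox alleles with no Cre named, and the conditional knockouts (cKO) were Emx1Ires-Cre; Prdm16flox/flox, with 2 libraries per genotype. Both genotypes thus carried the floxed alleles and differed in the Cre. Emx1-Cre acts in progenitors of the dorsal telencephalon and in the cells they give rise to, so cells of other origin in the lysate, such as vessels, microglia and interneurons from the ventral telencephalon, are outside its reach. Prdm16 encodes a zinc-finger transcriptional regulator of cortical neural stem cells. The labels do not say whether replicate libraries came from separate embryos, litters or pools, so the p-values measure the spread between these libraries, which may be technical. In a whole lysate, fewer cells that carry the mark at a locus and less mark per cell cannot be told apart.

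Sonic hedgehog, the secreted product of Shh, binds Patched, the product of Ptch1, and so releases Smoothened, the product of Smo, from inhibition. Smoothened acts through the primary cilium to relieve the hold of Sufu on the GLI proteins, of which Gli2 is the main activator and Gli3 is cut to a repressor when no ligand is present. In the forebrain the pathway patterns the ventral side, and Gli3 repressor is needed for a dorsal cortex to form. H3K4 monomethylation is known as a mark of enhancers and of the flanks of promoters, and lies on both poised and active elements.

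The sequences before 4 of the listed start sites are shown, since the peaks at these starts differ: the Gli2 start lay inside a peak in all 4 libraries, those of Gli3 and Ptch1 in none, and that of Sufu in 3. Of the 9 genes, 7 matched the RefSeq promoter table for GRCm38.p6. Each sequence is the 250 bases before the listed start, 5′ to 3′ on the gene's strand, with CpG dinucleotides in capitals. They cover chr1:119053620-119053869 on the minus strand (Gli2), chr13:15463473-15463722 on the plus strand (Gli3), chr13:63565736-63565985 on the minus strand (Ptch1) and chr19:46396646-46396895 on the plus strand (Sufu).
Gli2: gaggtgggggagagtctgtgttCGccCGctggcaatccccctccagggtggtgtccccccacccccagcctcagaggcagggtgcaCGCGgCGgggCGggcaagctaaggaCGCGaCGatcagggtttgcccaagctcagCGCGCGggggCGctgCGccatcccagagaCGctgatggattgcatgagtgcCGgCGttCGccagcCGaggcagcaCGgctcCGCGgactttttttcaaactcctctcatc
Gli3: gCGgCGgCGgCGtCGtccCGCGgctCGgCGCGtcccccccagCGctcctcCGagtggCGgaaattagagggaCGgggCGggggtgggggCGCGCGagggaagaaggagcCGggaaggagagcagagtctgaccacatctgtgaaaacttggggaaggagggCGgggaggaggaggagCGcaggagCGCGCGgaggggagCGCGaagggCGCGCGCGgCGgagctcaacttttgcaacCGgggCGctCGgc
Ptch1: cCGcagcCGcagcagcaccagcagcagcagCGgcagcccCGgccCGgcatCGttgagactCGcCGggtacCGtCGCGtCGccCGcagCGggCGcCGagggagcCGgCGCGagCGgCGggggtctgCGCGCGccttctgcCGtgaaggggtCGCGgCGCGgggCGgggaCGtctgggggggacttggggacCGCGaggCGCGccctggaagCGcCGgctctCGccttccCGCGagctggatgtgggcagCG
Sufu: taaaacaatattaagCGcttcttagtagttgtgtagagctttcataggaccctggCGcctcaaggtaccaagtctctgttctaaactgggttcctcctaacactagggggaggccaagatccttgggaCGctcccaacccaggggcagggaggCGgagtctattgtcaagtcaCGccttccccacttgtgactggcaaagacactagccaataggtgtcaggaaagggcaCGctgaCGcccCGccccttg
The Ptch1 and Gli3 sequences held 41 and 34 CpG, those of Gli2 and Sufu 22 and 8. The median over 21020 listed protein-coding starts was 10. The ratio of observed to expected CpG was 1.08 for Ptch1, 1.13 for Gli3, 0.780 for Gli2 and 0.439 for Sufu, against a median of 0.537. The GLI binding consensus GACCACCCA, searched on both strands, was in 0.162% of all such sequences and in none of the 7. Its core CCACCCA, which lies within the consensus, was in 8.37% of all and in none of the 7.

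The 4 peak lists were of unequal size, and this bears on every value below. They held 75314 and 66476 peaks over 130.3 and 113.9 Mb in WT replicates 1 and 2, and 80519 and 82683 peaks over 148.4 and 166.4 Mb in cKO replicates 1 and 2. Both cKO lists thus covered more of the genome than both WT lists, with median peak widths of 1243 and 1337 bp against 1171 and 1168 bp. The lists hold no read counts, so the depth is unknown. Coverage is therefore given in kb under peaks and also relative to each library's median locus, and for the locus test a difference is cKO minus WT on the log2(bases + 500) scale. Per library, values are in the order WT replicate 1, WT replicate 2, cKO replicate 1 and cKO replicate 2.

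The tissue label was compared with marker lists. The median covered share of 8 dorsal telencephalon loci was between 54.8% and 63.2% in the 4 libraries, and that of 7 ventral telencephalon loci between 22.5% and 33.0%. It was between 3.67% and 5.55% for meninges, 5.73% and 6.42% for microglia, 3.14% and 8.40% for endothelium, and 0.445% and 1.52% for erythroid genes, of which Hbb-bt and Alas2 had no peak. The Prdm16 locus was covered to 45.1%, 42.1%, 50.2% and 53.2% and did not pass the locus test (-0.14 ± 0.066 (SE), limma adjusted p = 0.518). Peaks of this mark do not check the deletion.

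The hedgehog loci were more densely covered than the median locus. Their median covered share was 20.98%, 21.3%, 24.0% and 28.1%, a mean of 23.6% ± 3.32 (SD, n = 4). The median over all loci was 5.16%, 4.14%, 6.34% and 7.14%. Ptch1 was the most covered at 35.6% ± 2.18 (SD over the 4 libraries, as for the following), then Gas1 at 28.3% ± 6.65, Gli3 at 27.2% ± 1.11, Gli2 at 25.1% ± 2.39, Shh at 23.4% ± 1.61 and Sufu at 22.1% ± 7.59. Gli1 at 17.9% ± 2.52, Smo at 15.9% ± 4.95 and Hhip at 5.63% ± 1.95 followed. Smo and Hhip, at 11.5% to 22.8% and 3.20% to 7.71%, were the neighbours in that order whose libraries did not overlap, and every other neighbouring pair overlapped. Their peaks were also wide: 16.9%, 16.2%, 16.0% and 19.5% of the peaks in the 9 loci spanned at least 5 kb, against 4.70%, 4.43%, 5.45% and 6.94% of all peaks.

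**Figure D1:**
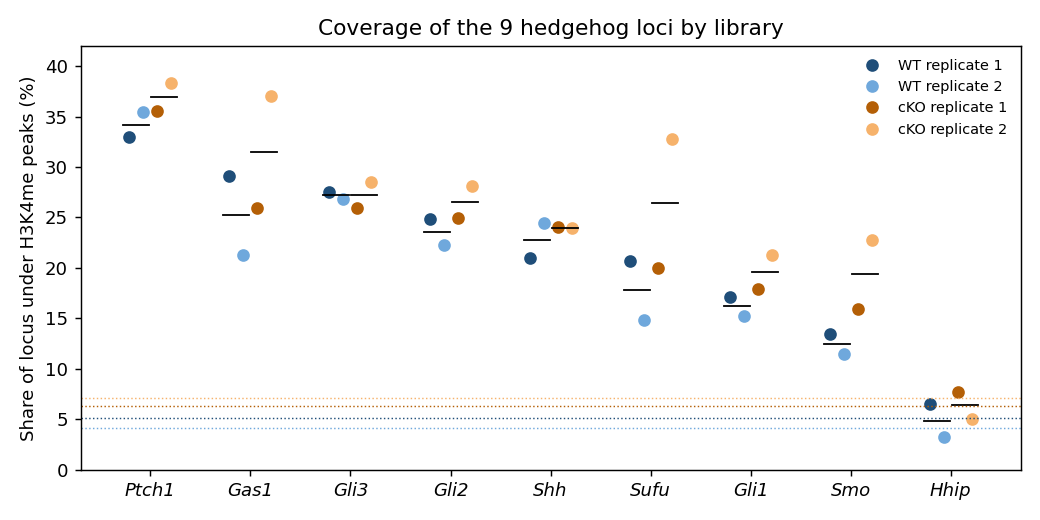
Share of each locus (gene span plus 10 kb on either side) under H3K4me peaks, in percent. Points are the 4 libraries, horizontal bars the genotype means, and dotted lines each library's median over all protein-coding loci; all loci but Hhip lie well above those lines.

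No locus of any kind passed the genotype test with all 4 libraries; without WT replicate 1, 124 loci did (119 higher, 5 lower), none of them a hedgehog locus. Of 14941 loci tested, limma with Benjamini-Hochberg adjustment called 0% higher and 0% lower in the cKO libraries at 0.05, and the smallest adjusted p of all was 0.407, that of Gli3 among others. At an unadjusted p under 0.05, 5.56% of loci were higher and 4.44% lower, and among the hedgehog loci none was higher and Gli2 and Gli3 were lower. In plain kb, Gli1, Gli2, Ptch1 and Smo had more bases under peaks in both cKO libraries than in both WT libraries and the other 5 overlapped. More bases in both cKO libraries were found at 59.8% of all loci, and fewer in both at 1.22%. Whether 4 of 9 departs from that share was not tested. After centring each library on its median locus, both cKO libraries lay below both WT libraries at Gli1, Gli2, Gli3, Ptch1 and Shh, 5 of 9 against 27.2% of all loci, and above them at Smo, 1 of 9 against 17.3%. The centred difference was below 0 at 6 of 9 loci and at 55.0% of all.

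**Figure D2:**
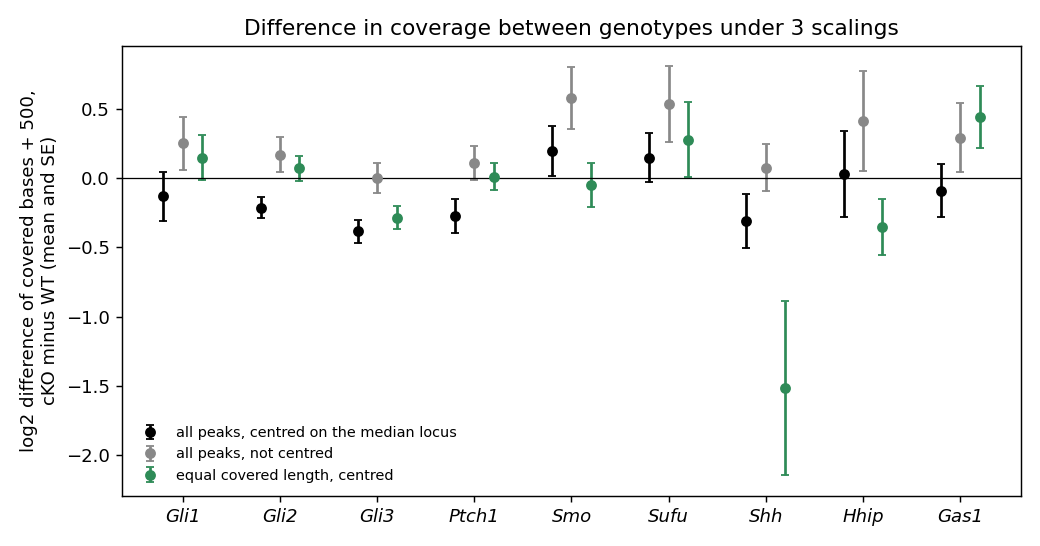
Difference in bases under peaks, cKO minus WT, on the log2(bases + 500) scale for each locus, with its SE from limma, under 3 scalings: centred on the library median, not centred, and lists cut to equal covered length. Without centring all 9 lie at or above 0; with centring 6 lie below it, and Gli3 is at -0.38.

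Among the ligands and their partners, Shh held 3 peaks in each library. They covered 6.348, 7.413, 7.267 and 7.254 kb, so the genotypes overlapped, and the centred difference was -0.31 ± 0.20 (limma adjusted p = 0.596). It depended on which WT library was kept: WT replicate 1 left out gave -0.52, and WT replicate 2 left out gave -0.10. With lists of equal covered length it was -1.52 ± 0.63 (limma adjusted p = 0.586). The gene span held regions at chr5:28457750-28460819 and chr5:28463132-28466896. Another region, chr5:28475863-28477932, lay inside the span of the lncRNA gene 9530036O11Rik, ran past the end of the flank, and had in its whole length 1286, 1061, 1418 and 2070 bases under peaks, more in both cKO libraries.

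Ptch1 encodes the receptor and is itself a target of GLI activators in many tissues. All 6 of its regions had a peak in all 4 libraries, as did all 3 of Shh and the 1 of Gas1. This held for 61.0% of the regions of the 9 loci together, and for 59.8% over all protein-coding loci. At Ptch1, bases under peaks were 28.068, 30.171, 30.277 and 32.609 kb. Among 1.5-fold length-matched loci it stood at the percentiles 97.4, 98.5, 97.7 and 97.3. The centred difference was -0.28 ± 0.12 (limma adjusted p = 0.504). With WT replicate 1 left out it was -0.43, and with WT replicate 2 left out it was -0.12. The regions formed a row through the gene, from chr13:63513057-63516067 to chr13:63566373-63574117. The latter spans the upper end of the gene, its 5′ end on the minus strand, and held 7649, 7367, 7735 and 7514 bases. The widest, chr13:63523000-63531512, lay 34.2 to 42.7 kb downstream of the listed start and had 5298, 6257, 6873 and 7406 bases.

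Hhip, which encodes a membrane protein that binds and sequesters hedgehog ligands, was the least covered. It held 7.336, 3.587, 8.655 and 5.686 kb under peaks, with no order between genotypes (0.027 ± 0.31, limma adjusted p = 0.979). Its main region, chr8:80054442-80057869, began 0.139 kb downstream of the listed start and had 3428, 2367, 2690 and 2693 bases. Gas1, which encodes a membrane-anchored co-receptor that promotes signalling, was a short gene inside a single region, chr13:60170650-60179217. That region held 6.74, 4.916, 5.99 and 8.568 kb, as 2 peaks in each library but cKO replicate 2, where they joined into 1. The centred difference of Gas1 was -0.091 ± 0.19 (limma adjusted p = 0.874) and turned to 0.44 with lists of equal covered length.

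Smo had 6.172, 5.254, 7.325 and 10.462 kb under peaks, in 4, 3, 5 and 7 peaks. Both cKO libraries were above both WT libraries, and cKO replicate 2 stood highest (0.20 ± 0.18 after centring, limma adjusted p = 0.701, and 0.040 without cKO replicate 2). The region at chr6:29755222-29759141 was the widest, with 3380, 3263, 3148 and 3920 bases. A region with no peak in either WT library, chr6:29769154-29770889, held 523 and 1714 bases in the cKO libraries, at folds of 3.06 and 2.90, and lay in the flank inside the span of Ahcyl2. Without the flank, the Smo difference was -0.022.

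Sufu encodes the protein that holds GLI factors in the cytoplasm. It had 23.193, 16.65, 22.351 and 36.703 kb under peaks, so WT replicate 1 was above cKO replicate 1 and the genotypes overlapped (0.15 ± 0.18, limma adjusted p = 0.772). The difference was 0.41 without cKO replicate 1 and -0.12 without cKO replicate 2. In cKO replicate 2, peaks that were split elsewhere were joined: chr19:46415560-46424475 held 4320, 4287, 3898 and 8837 bases, and chr19:46443583-46452673 held 5276, 4807, 5166 and 8740. Regions with peaks in both cKO libraries and neither WT library lay at chr19:46433441-46435907, with 673 and 2467 bases, and at chr19:46468728-46470006, with 529 and 1279. Their folds were 3.73 and 3.50 in the former and 3.46 and 2.81 in the latter.

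**Figure D3:**
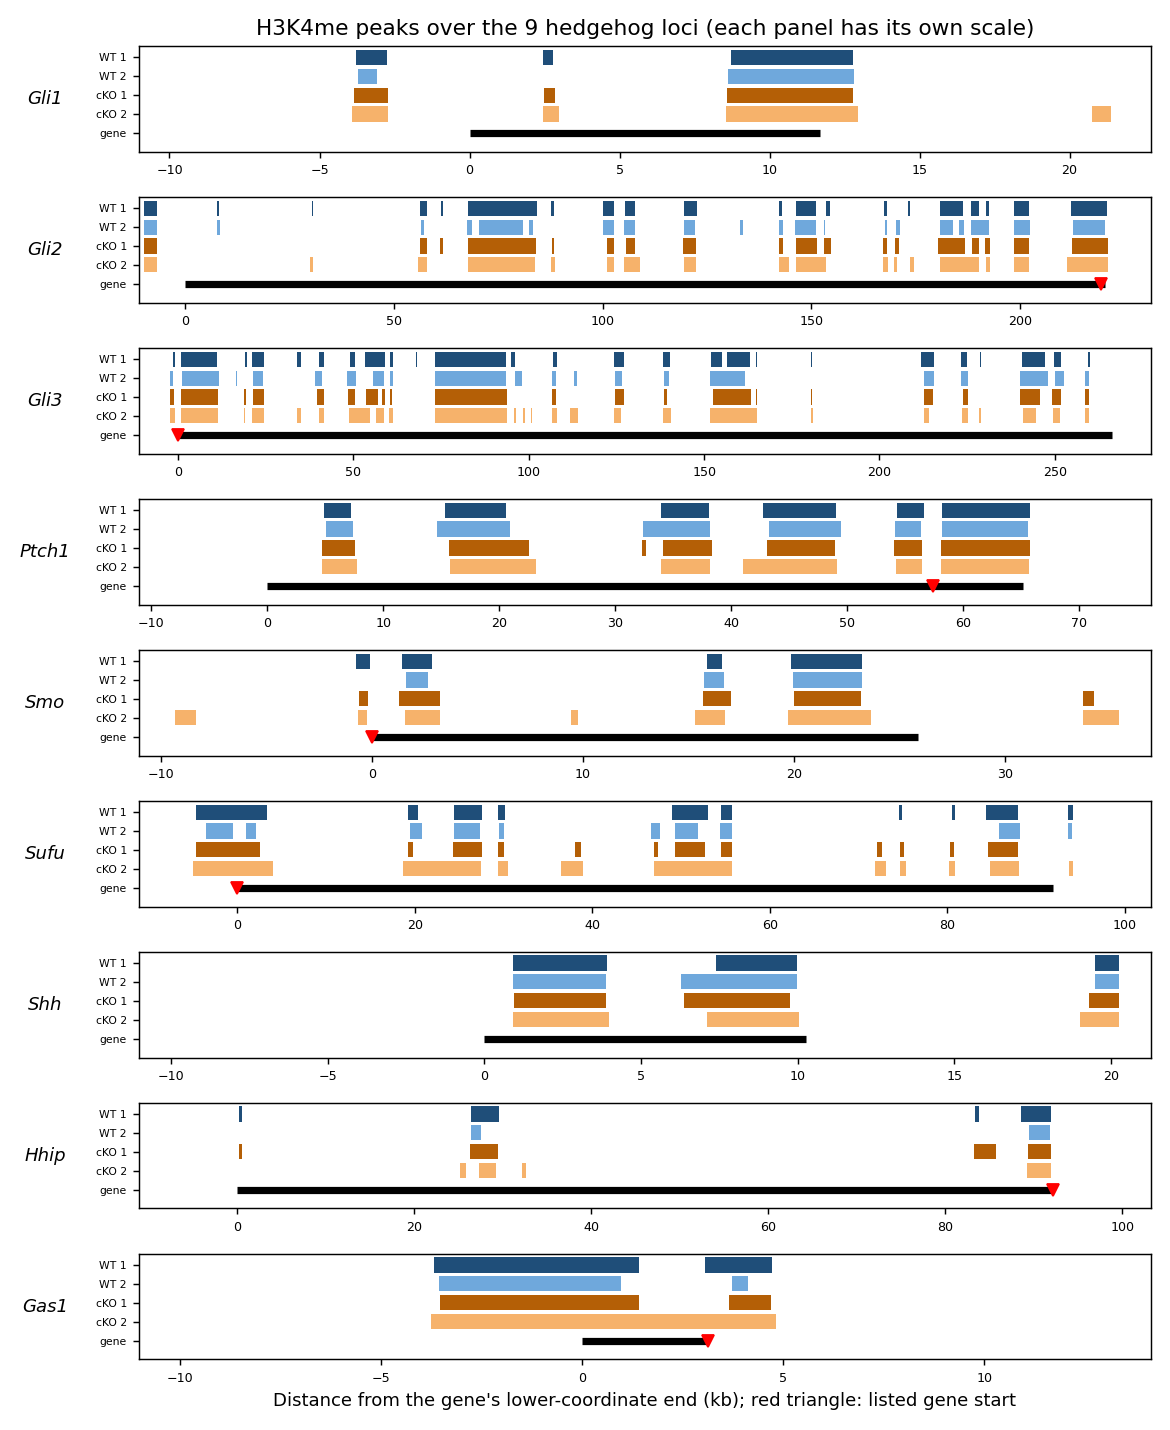
Peaks of each library over the 9 loci, drawn to scale for each locus as kb from the lower-coordinate end of the gene, with the gene span as a bar and the listed start as a triangle where one was matched. Of 82 regions, 50 have a peak in all 4 libraries (61.0%, against 59.8% over all loci), and Gli2 and Gli3 hold rows of peaks through their spans.

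Of the GLI genes, Gli1, a direct target of the pathway that encodes an activator, was the least covered. It had 5.434, 4.823, 5.684 and 6.739 kb under peaks and a centred difference of -0.13 ± 0.18 (limma adjusted p = 0.795). Most of it was a single region across the upper end of the gene, chr10:127338447-127342816, with 4070, 4190, 4208 and 4370 bases and folds of 5.88, 4.53, 4.997 and 5.07. Parts of the locus belong to neighbours: chr10:127325966-127327177 lay in Arhgap9, and chr10:127350621-127351249, covered in cKO replicate 2 alone, lay in Inhbe.

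Gli2 held 20, 20, 18 and 17 peaks over 59.646, 53.636, 60.014 and 67.631 kb. In kb both cKO libraries were above both WT libraries, and after centring both were below them (-0.21 ± 0.077, unadjusted p = 0.0236, limma adjusted p = 0.474). Gli2 had the highest fold of the 9 loci in every library but WT replicate 2, where Sufu and Gli3 were higher. At chr1:118953454-118956675, 96.9 to 100.2 kb downstream of the listed start, the authors' fold enrichment was 7.89, 5.25, 5.84 and 8.56. This stretch overlaps the lncRNA gene Gm51642 and the miRNA gene Mir6346. The highest fold anywhere in the locus stood at the percentiles 99.3, 95.6, 98.5 and 99.9 of each list. The widest region, chr1:118901673-118918368, held 16450, 12713, 16361 and 16024 bases, in a single peak except in WT replicate 2. Of the 12 Gli2 regions with peaks in all 4 libraries, 5 had more bases in both cKO libraries, 1 had fewer and 6 overlapped. The shares over all protein-coding loci were 42.3% with more and 4.80% with fewer, so 5 of 12 is near that background. Among the 5, chr1:118980284-118988804 had 5872, 5366, 6732 and 7179 bases. In the 1 with fewer bases, chr1:118934158-118936895, the peaks were 2673 and 2657 bases in WT and 1707 and 1587 in cKO, with folds of 6.45 and 4.87 against 6.62 and 6.93. Another region, chr1:118841702-118842421, had peaks of 406 and 720 bases in the WT libraries and none in the cKO libraries, at folds of 3.10 and 3.06.

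Gli3 held the most bases of the 9, with 25, 20, 21 and 25 peaks over 78.819, 76.869, 74.181 and 81.704 kb. In kb the genotypes overlapped and their means were 77.8 ± 1.38 (SD, n = 2) in WT and 77.9 ± 5.32 (SD, n = 2) in cKO. Since the median locus was larger in both cKO lists, the centred difference was -0.38 ± 0.082, with an unadjusted p of 0.00159 and a limma adjusted p of 0.407. Among length-matched loci, Gli3 stood at the percentiles 94.3 and 95.7 in WT and 92.0 and 91.3 in cKO. With WT replicate 1 left out the centred difference was -0.47 (limma adjusted p = 0.0541), and with WT replicate 2 left out it was -0.30. It was -0.29 ± 0.084 with lists of equal covered length and 0.00026 without centring.

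The regions of Gli3 that had peaks in all 4 libraries did not move together. Of 16, there were 5 with more bases in both cKO libraries, 4 with fewer and 7 that overlapped. Over all protein-coding loci, 42.3% of such regions had more bases in both cKO libraries and 4.80% fewer. In 3 of the 4 with fewer bases, the fold was not lower in both cKO libraries. At chr13:15675512-15679188 the bases were 3677, 2724, 2479 and 1358, and the folds 6.04, 5.11, 5.66 and 5.79. At chr13:15703829-15711804 the bases were 6473, 7927, 5582 and 3868, and the folds 4.03, 4.10, 4.52 and 5.28. At chr13:15686975-15689026 the bases were 1828, 2052, 1490 and 1608, and the folds were 3.09 and 3.57 in WT and 5.35 and 5.60 in cKO. These 3 lay between 211.8 kb and 248.1 kb downstream of the listed start, in the later part of a gene of 266.3 kb. The fourth, chr13:15524008-15525124, lay 60.3 to 61.4 kb downstream and had 1021, 1049, 775 and 876 bases, with folds of 4.35 and 4.21 in WT and 3.95 and 3.90 in cKO. Beyond 248.1 kb, chr13:15713064-15716276 overlapped between genotypes, with 2012, 2526, 2541 and 2092 bases. Further on, chr13:15722398-15723731 had more in both cKO libraries, with 577, 1072, 1138 and 1104 bases.

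Other Gli3 regions were nearly the same size in all lists. The widest of the 82 regions in the 9 loci was chr13:15536928-15557577, a single peak in each library of 20293, 20170, 20509 and 20501 bases, 73.2 to 93.9 kb downstream of the listed start. The region from 0.884 to 11.5 kb downstream, chr13:15464607-15475262, held 10109, 10534, 10642 and 10522 bases. The highest fold lay at chr13:15588146-15590965 in cKO replicate 2 at 6.63, where the others were 5.60, 5.35 and 5.02.

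Taking the 9 loci as 1 value per library, 221.756, 203.319, 221.744 and 257.356 kb lay under peaks. The first library of each genotype had nearly the same value, and the genotype means, 212.5 ± 13.04 and 239.6 ± 25.2 kb (SD, n = 2 each), differed by 27.0 kb (two-sided exact permutation p = 0.667). As a share of all bases under peaks, the 9 loci made up 0.170% and 0.178% in WT and 0.149% and 0.155% in cKO. By a two-sided exact permutation test the difference, -0.0223 percentage points, had p = 0.33, and 2 libraries against 2 cannot go lower. With lists of equal covered length the kb difference was -3.12 and the difference in share -0.00274 percentage points.

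The peaks fell into 82 separate regions, of which 50 had a peak in all 4 libraries, 61.0% against 59.8% over all loci. There were 3 with peaks in both cKO libraries and neither WT library, 3.66% against a background of 5.35%, and 1 the other way round, 1.22% against 0.504%. Of the 50, there were 17 with more bases in both cKO libraries and 5 with fewer, where the backgrounds are 42.3% and 4.80%. All 5 with fewer bases lay in Gli3 and Gli2. Of the bases covered in any library, 56.0% were covered in all 4 at the hedgehog loci and 44.8% over the genome.

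**Figure D4:**
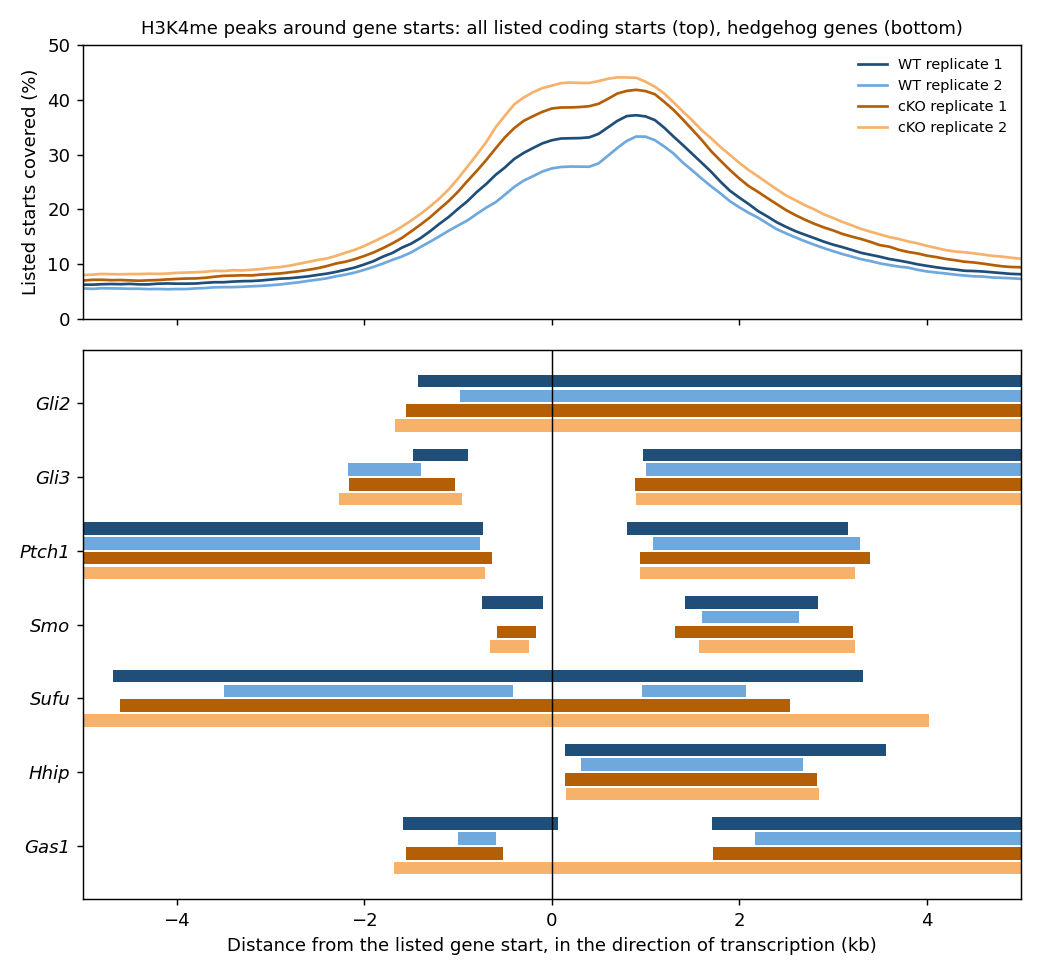
Peaks around listed transcription starts, by distance in kb from the start. The upper panel gives the percent of 21020 listed protein-coding starts under a peak in each library; the lower panel draws the peaks at the 7 matched hedgehog genes, where those of Gli3, Ptch1, Smo and Hhip stop short of the start in all 4 libraries.

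Some listed starts lay under a peak and others did not. The Gli2 start lay inside a region, chr1:119045299-119055289, which had a peak across it in every library. The Gli3 start lay in a gap, with the nearest peak 891, 1006, 884 and 895 bp away and peaks on both sides. The listed Ptch1 start lay in a like gap, 734, 764, 638 and 712 bp from the nearest peak. That start is inside the Ptch1 span. The 5′ end of the span, at chr13:63573460 on the minus strand, lay under a peak in all 4 libraries. The Smo start was 91, 1599, 173 and 240 bp from one, and the Hhip start 139, 311, 145 and 157 bp. For Sufu the start was covered in all but WT replicate 2, where it was 413 bp away, and for Gas1 in WT replicate 1 and cKO replicate 2. The region at the Sufu start, chr19:46391911-46400920, ran into the span of the neighbouring gene Actr1a, chr19:46376813-46395741. Hhip had no peak base in the 2 kb before its start in any library, and Smo had none there in WT replicate 2. The Gli3, Ptch1, Smo and Hhip starts were uncovered in both genotypes. Over all listed starts, 32.6%, 27.5%, 38.4% and 42.5% lay under a peak.

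Starts without a peak across them, but with peaks within 2 kb in all 4 libraries, were common among CpG-rich promoters. Of 11757 starts with such peaks, 23.6% were uncovered in all 4 libraries. By the ratio of observed to expected CpG, this was 17.0% for starts in the lowest 3919, 21.1% in the middle 3920 and 32.6% in the highest 3918. The listed starts of Gli3 and Ptch1, with ratios of 1.13 and 1.08, are in the highest of these, the latter inside the gene's span. The other members did not follow that order. Hhip at 0.798 and Gli2 at 0.780 are both in the middle, the former uncovered and the latter covered in all 4 libraries. Smo at 0.535, uncovered in all 4, is in the lowest, with Gas1 at 0.463 and Sufu at 0.439. In the lowest, 50.3% of starts were covered in all 4 libraries, against 25.9% in the highest.

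The other genes of the pathway were described in the same way. Of 51 listed, 50 passed the filter on coverage and none passed the locus test (smallest limma adjusted p = 0.468). At an unadjusted limma p under 0.05, 2 of the 50 were higher and 3 lower, where 5.56% and 4.44% of all loci were. Their median covered share was 12.9%, with a range from 0.460% to 60.6%, and their median centred difference -0.032, where that of all loci was -0.038 and that of the 9 hedgehog loci -0.13. Without centring these medians were 0.35, 0.35 and 0.25.

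By role, none of 7 genes for ligands and their release passed, with Ihh and Dhh, which encode the other hedgehog ligands, at -0.070 ± 0.27 and 0.16 ± 0.21. None of 10 receptor and reception genes passed. Cdon, which encodes a co-receptor, was at -0.12 ± 0.091 and was covered to 40.7%. Boc, a co-receptor related to Cdon and named here after its values were seen, was the most covered of the list at 60.6% ± 3.34 (SD, n = 4), with a difference of -0.28 ± 0.088 and the list's smallest limma adjusted p, 0.468. Among 12 tested cilium and transport genes, Kif7, a kinesin-family regulator of GLI proteins at the cilium tip, was at 0.12 ± 0.24 and Stk36, a kinase, at -0.081 ± 0.26. Of the 11 genes for kinases and degradation, Prkaca and Prkacb, catalytic subunits of protein kinase A, were at 0.014 ± 0.15 and 0.31 ± 0.21. Of 10 targets known from other tissues, the cyclin genes Ccnd1 and Ccnd2 were at -0.45 ± 0.16 (limma adjusted p = 0.474) and -0.16 ± 0.12.

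The loci most like each GLI gene in covered share over the 4 libraries were found by Euclidean distance among loci within 1.5-fold of its length. For Gli1 they were Tor1b, Plaur and Stat6, at distances of 0.721, 1.23 and 1.41 percentage points among 11887 loci. For Gli2 they were Mllt3, Ston2 and Sobp, at 1.60, 1.69 and 2.25 among 1124. For Gli3 they were Dscaml1, Sdccag8 and Cachd1, at 3.73, 4.55 and 4.695 among 886. Gli3 thus had no neighbour as near as the others did, in a smaller pool of loci of its length.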

How the data were processed

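H3K4me ChIP-seq peaks were analysed in 2 WT and 2 cKO libraries; 4 input libraries were not used here. The submitters' processing notes name the build mm10 and the tools MACS2 2.1.1, Bowtie2 2.2.8, cutadapt and FastQC; for calling options, nothing is given in the sources used here. The deposited lists give, per library, each peak's coordinates, its fold enrichment (a ratio) and its −log10 p and q as the authors' caller wrote them, which served only to describe, rank or filter peaks within a list. A more deeply sequenced or better precipitated library gives more and wider peaks.

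Peaks on chromosomes 1 to 19 and X were kept. Gene spans came from RefSeq on GRCm38.p6, which lists no exons. Loci with a mean of 1000 or more bases under peaks were kept, each value was taken as log2(bases + 500), and the library's median over them was subtracted. Genotypes were compared with limma 3.58.1 (eBayes with trend) in R 4.3.3, with Benjamini-Hochberg adjustment over 14941 loci and a threshold of 0.05. The fit was tested on simulated data. Intervals were handled in Python 3.11.15 with numpy 2.4.6 and pandas 2.3.3. Neighbouring loci share peaks, and so their values are not independent.

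A region is a stretch covered by a peak in at least 1 library. Replicate numbers are shared between genotypes, but the labels name no shared litter or day, and deviations of same-numbered libraries correlated at -0.0962 over loci, so the numbers were not taken as pairs. The text names the 9 loci, the first 2 tested genes of each pathway role and the 3 loci most like each GLI gene; 1 gene that this rule names is not reported here. The members, lists and tests were chosen with earlier results of these data known. Flank, peak threshold, list size, centring, pseudocount, filter, block and each left-out library were varied.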

Additional observations from a re-analysis of the deposited data

How the results depend on the processing

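Of 117 recomputed log2 differences of the 9 loci, 96 kept their direction, 21 reversed it and none passed the threshold. Without centring, Gli1 was 0.25, Gli2 0.17, Gli3 0.00026, Ptch1 0.11, Shh 0.076 and Gas1 0.29; here the median of all loci was 0.35. With lists of equal covered length, Gli1 was 0.15, Gli2 0.072, Ptch1 0.012, Smo -0.049, Hhip -0.35 and Gas1 0.44, Shh moved to -1.52, the summed difference was -3.12 kb and the difference in share was -0.00274 percentage points (exact permutation p = 1.0). For the gene span alone Smo was -0.022 and Gas1 0.28, with equal numbers of peaks Smo was -0.21, and with stricter peaks (−log10 q of at least 2) Shh was 0.10. With 1 library left out, Sufu ranged from -0.12 (without cKO replicate 2) to 0.41, Hhip from -0.34 (without WT replicate 2 or cKO replicate 1) to 0.40, and Gas1 from -0.25 to 0.063 (above 0 without WT or cKO replicate 1). Gli3 was below 0 in every alternative but the one without centring, with adjusted p from 0.0541 to 0.999. The count of called loci was 0 in each alternative but one: it was 124 without WT replicate 1 (119 higher, 5 lower), none a hedgehog locus, so the range was 0 to 124; in such fits the lone library is assumed to vary like the others. With a replicate block it was also 0, and Gli3 had adjusted p = 0.515. The summed difference was 9.21 to 44.8 kb with 1 library left out, and the difference in share -0.0264 to -0.0181 percentage points. Regions in both cKO libraries alone numbered 1 of 82 when a library had to cover 50% of the region, against 9.64% over all loci. They numbered 1 of 74 with stricter peaks, 1 of 73 with equal numbers and 0 of 66 with equal length. The shares over all loci were there 6.20%, 2.90% and 0.636%. Regions in both WT libraries alone were 0 of 74 with stricter peaks and 3 of 66 with equal length, against 0.408% and 9.12%. Alternatives for the Gli3 regions covered in all 4 libraries were added after seeing the data. With stricter peaks, equal numbers and equal length, 4 of 15, 3 of 13 and 3 of 9 had fewer bases in both cKO libraries. Those with more were 4, 3 and 2. Over all protein-coding loci, 4.72%, 4.63% and 4.55% of such regions had fewer, and 42.9%, 42.9% and 43.0% had more. The cause of these shifts was not tested beyond what each alternative changes.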

Other observations

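Of the 10 targets known from other tissues, 1 was higher and 4 were lower in both cKO libraries after centring. Over all loci the shares were 17.3% and 27.2%. The median difference of the 10 was -0.11, against -0.038 for all loci. The ventral neural tube and forebrain genes among them did not share a direction. The values of all 10 had been seen before these were named, and none passed the threshold. Nkx2-1, which specifies the ventral telencephalon, had 6.04% and 1.80% of its locus under peaks in WT and 12.0% and 11.5% in cKO (0.93 ± 0.38, limma adjusted p = 0.489). Foxa2, a floor plate gene, had 9.46% and 0% in WT and 11.0% and 10.5% in cKO (1.00 ± 0.66, limma adjusted p = 0.606), and WT replicate 2 was the library without a peak. Nkx2-2, a gene of ventral progenitors, had 18.9% and 13.7% in WT and 13.3% and 19.4% in cKO, and its centred difference was -0.39 ± 0.20 (limma adjusted p = 0.529). Nkx6-1, also a gene of ventral progenitors, had 11.6% and 8.99% in WT and 11.1% and 20.9% in cKO (0.12 ± 0.28, limma adjusted p = 0.890). Olig2, a gene of ventral progenitors and of the oligodendrocyte lineage, was covered to 41.0%, 40.5%, 40.1% and 54.6% (-0.19 ± 0.16, limma adjusted p = 0.677).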
